A study of Glycine max with 12 samples.

Results

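Sense lncRNAs that overlap exons of annotated genes were described in young soybean pods. They were the 189 transcripts with class code o on chromosomes 1 to 20, out of 11072 lncRNA transcripts in the table, which is 1.71%. Another 3 class o transcripts lay outside these chromosomes and were not used here. The pods came from MT72, a low-linolenic acid mutant of the fourth generation after treatment with ethyl methanesulfonate, and from JN18, the wild-type control and a high-oil variety. Each line was sampled at 40 and at 30 d after flowering, with 3 biological replicates in each of the 4 groups, written MT_40, MT_30, JN_40 and JN_30. Strand-specific libraries were made from total RNA depleted of ribosomal RNA and were read from both ends over 150 bases. The aligned bases recovered from the table came to between 10.05 and 12.28 Gb per library. JN_9, a library of JN_30, listed 2847 of all transcripts at 0, against 2074 to 2360 in the other 11 libraries.

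Class code o marks a transcript that shares part of an exon with a known gene on the same strand but has none of that gene's splice junctions. Such transcripts can be alternative ends, read-through products between neighbouring genes or products of a separate promoter, and short-read assembly does not always tell these apart. In developing soybean pods the seed fills with storage lipid and protein, and a whole pod also holds the pod wall and seed coat. Fewer cells of a kind and less RNA per cell cannot be told apart in whole pods. The table holds lncRNAs alone, so the tissue label was not checked against marker genes. All 146 host genes of the members carried locus names (LOC numbers) with no described role in the files, and they are therefore given by name only.

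The members were spliced transcripts of small mature length and large genomic span. There were 169 members with 2 exons, 18 with 3 exons and 2 with 4 exons. Their mature length had a median of 405 bases and ran from 205 to 4863 bases. The genomic span, from the first to the last base with the introns included, had a median of 24010 bases and reached 547689 bases. A span over 10 kb was found for 111 members (58.7%), against 30 of 1074 lncRNAs sharing a junction with a known gene (class j, 2.79%), 65 of 262 spliced antisense lncRNAs (class x, 24.8%) and 38 of 656 spliced intergenic lncRNAs (class u, 5.79%). The members thus held 111 of the 246 transcripts of the table over 10 kb and 35 of the 45 over 100 kb.

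**Figure D1:**
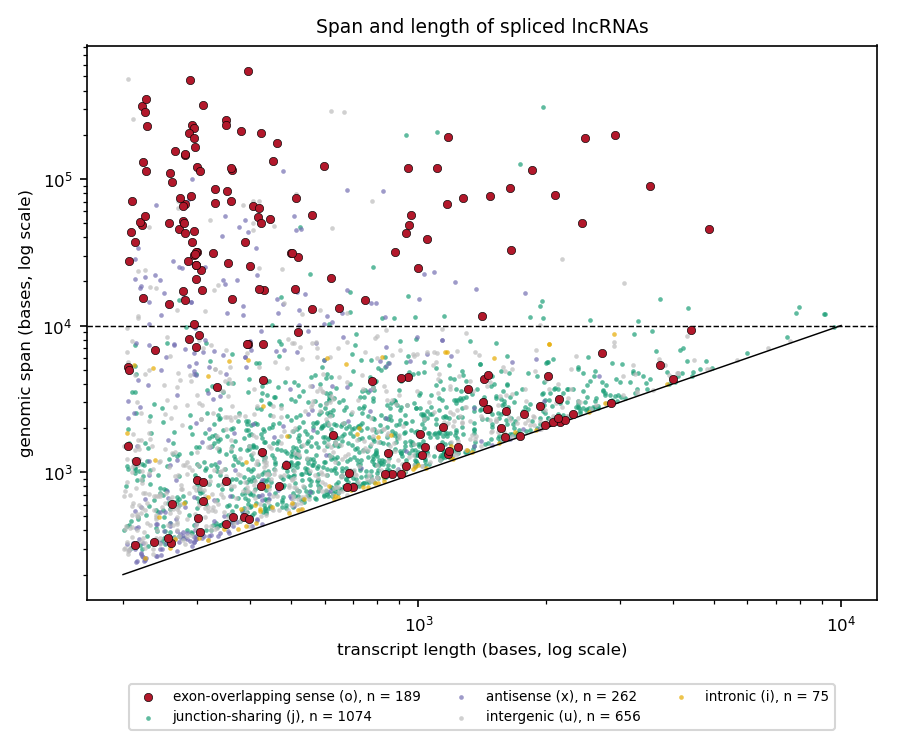
Genomic span against mature transcript length of every spliced lncRNA of the main classes, both in bases on log scales, with the 189 members in red. The solid line marks equal span and length and the dashed line 10 kb; 111 of the 189 members lie above the dashed line.

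The members over 10 kb were shorter as mature transcripts than those up to 10 kb, with median lengths of 331 and 840.5 bases. Their median of the mean level was 0.71 FPKM (fragments per kilobase of transcript, scaled to library size), against 0.363 FPKM for the 78 members up to 10 kb. Lying wholly inside the span of a member over 10 kb there was a lncRNA assigned to another host gene in 29 of 111 cases (26.1%), and in 2 of 78 cases for the shorter spans. Either strand was counted, and a longer span has more room to enclose a lncRNA, so these shares are not comparable as a trait. MSTRG.50125.1 on chromosome 8 (43699248 to 44172711, plus strand, host LOC100800515) enclosed lncRNAs of 6 other hosts, the highest number for any member. It was detected in every library, at 2.93, 3.22 and 2.52 FPKM in MT_40, 2.81, 2.01 and 1.08 FPKM in MT_30, 1.34, 2.58 and 3.24 FPKM in JN_40 and 2.93, 2.56 and 5.76 FPKM in JN_30. The 4 groups overlapped throughout. Positions are those of the table, from a genome build not given in the sources used here.

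Many members overlapped one another. Chaining members that overlapped on the same strand gave 133 loci, of which 108 held a single member and 25 held the other 81. An end within 100 bases of that of another member on the same strand was found for 45 members. Chromosome 14 held the most members (20), followed by chromosome 7 (18) and chromosome 6 (17), and chromosome 5 held 1. Levels of overlapping members are uncertain, because the assembler divides reads among transcripts that share sequence.

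The members were low in abundance, with a few exceptions. Of the 189 members, 84 were above 0 FPKM in all 12 libraries, 98 in some libraries and 7 in none. The median of the mean level was 0.562 FPKM, and 58 members (30.7%) had a mean above 1 FPKM, against 17.6% of all lncRNAs in the table. At 1 FPKM a member of median length rested on 27.1 to 33.2 estimated reads per library, and 67 members averaged under 10 estimated reads. In MT72, 139.3 ± 1.15 members were detected per library at 40 d and 141 ± 1.73 at 30 d, and in JN18 137.3 ± 2.08 at 40 d and 136.3 ± 7.51 at 30 d (SD, n = 3 each). The lowest number was 129, in JN_9. The stages overlapped within each line, and the lines overlapped within each stage.

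The most abundant member was MSTRG.35023.2 on chromosome 3 (34373476 to 34437265, plus strand, host LOC100785425), which took 70.1% of the summed mean level of all members. It had 1545, 1739 and 1080 FPKM in MT_40, 1823, 2091 and 2820 FPKM in MT_30, 275.7, 733.6 and 711 FPKM in JN_40 and 879.1, 412.7 and 683.1 FPKM in JN_30. Every MT72 library was above every JN18 library. MSTRG.35023.1, the member of longest span (33889641 to 34437329, 547689 bases, host LOC548016), ended within 100 bases of it and had 63.5 to 76.0 FPKM in MT_40, 77.1 to 158.9 FPKM in MT_30, 14.9 to 54.4 FPKM in JN_40 and 28.9 to 55.7 FPKM in JN_30. On the opposite strand, MSTRG.35059.1 (34369985 to 34373773, host LOC102662008) overlapped the first bases of MSTRG.35023.2. It had 173.1 to 238.8 FPKM in MT_40, 237.1 to 549.9 FPKM in MT_30, 42.2 to 102.2 FPKM in JN_40 and 64.9 to 142.3 FPKM in JN_30. The sources used here do not say whether counting used strand, so that reads of these neighbours may have been shared.

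All 3 transcripts at this chromosome 3 site were higher in every MT72 library than in every JN18 library, but none passed the adjusted test. In MT_30 versus JN_30 their log2 fold changes, taken on log2 of FPKM plus 0.1 as everywhere below, were 1.81 (SE 0.78, limma, adjusted p = 0.333) for MSTRG.35023.2, 1.35 (SE 0.49, adjusted p = 0.244) for MSTRG.35023.1 and 1.75 (SE 0.51, adjusted p = 0.157) for MSTRG.35059.1. At 40 d the log2 fold changes of MT_40 versus JN_40 were 1.44, 1.05 and 1.49 in the same order, with adjusted p-values of 0.814, 0.752 and 0.584. The summed level of all members, 1991 ± 354 FPKM in MT_40, 3107 ± 697 FPKM in MT_30, 946 ± 234 FPKM in JN_40 and 994.7 ± 253 FPKM in JN_30 (SD, n = 3 each), was set by this site. Without the 4 most abundant members the sums were 188.7 ± 26.2 FPKM in MT_40, 295.2 ± 51 FPKM in MT_30, 212.4 ± 91.5 FPKM in JN_40 and 147.7 ± 23.3 FPKM in JN_30. In JN_40 these sums ran from 127.3 to 309.2 FPKM, with JN_4 the highest. JN_4 held 83.9 FPKM of MSTRG.2962.1 and 27.0 FPKM of MSTRG.6259.1, which were at most 0.0789 FPKM in every other library.

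Over both stages, 5 members were higher in all 6 MT72 libraries than in all 6 JN18 libraries, which 0.714% of the table's transcripts were, and 1 member was lower in all of them, as 0.397% of the table were. These were the 3 transcripts above, MSTRG.1877.1, MSTRG.13686.1 and, on the lower side, MSTRG.45039.1. MSTRG.1877.1 on chromosome 1 (53463795 to 53488631, plus strand, host LOC100500037) had 60.9, 69.0 and 71.9 FPKM in MT_40, 120.2, 68.5 and 73.2 FPKM in MT_30, 38.3, 44.2 and 43.6 FPKM in JN_40 and 22.3, 59.2 and 28.3 FPKM in JN_30. Its lowest MT72 value and its highest JN18 value, from JN_8, lay close together. The log2 fold change was 1.33 (SE 0.39, limma, adjusted p = 0.160) for MT72 over JN18 at 30 d and 0.68 (SE 0.39, adjusted p = 0.842) at 40 d. MSTRG.4407.1 on chromosome 10 (44644443 to 44657594, minus strand, host LOC100782210) was among the 10 highest members too, at 14.6 to 17.4 FPKM in MT_40, 7.10 to 12.2 FPKM in MT_30, 3.46 to 6.69 FPKM in JN_40 and 9.57, 7.52 and 0.0745 FPKM in JN_30. At 40 d its MT72 and JN18 libraries did not overlap, while the test gave an adjusted p of 0.851.

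The change between stages in the mutant was the question of MT_40 versus MT_30. Of the 146 members tested, those above 0.1 FPKM in at least 3 libraries, 10 passed an adjusted p of at most 0.05 (6.85%), against 2.5% of all 9142 lncRNAs tested. Of these, 7 rose in MT_40 and 3 fell, where 1.59% and 0.919% of all lncRNAs tested rose and fell. The 10 include 2 isoforms at 1 site of chromosome 7 and 3 overlapping members of 1 locus of chromosome 14, which are not independent. The study's thresholds ask for more than 1 in absolute log2 fold change with an unadjusted p up to 0.05. By these, 29 members were up-regulated and 13 down-regulated (28.8% together), against 6.81% up-regulated and 7.37% down-regulated (14.2% together) of all lncRNAs tested. The median log2 fold change was 0.22 over the members tested and -0.10 over all lncRNAs tested. The 43 members not tested were above 0.1 FPKM in fewer than 3 libraries, and no statement is made on their change. Some of them were high in 1 library, such as MSTRG.2962.1 with 83.9 FPKM in JN_4. The filter on low values was passed by members high in any 1 group, so these counts describe the members tested and not all 189.

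**Figure D2:**
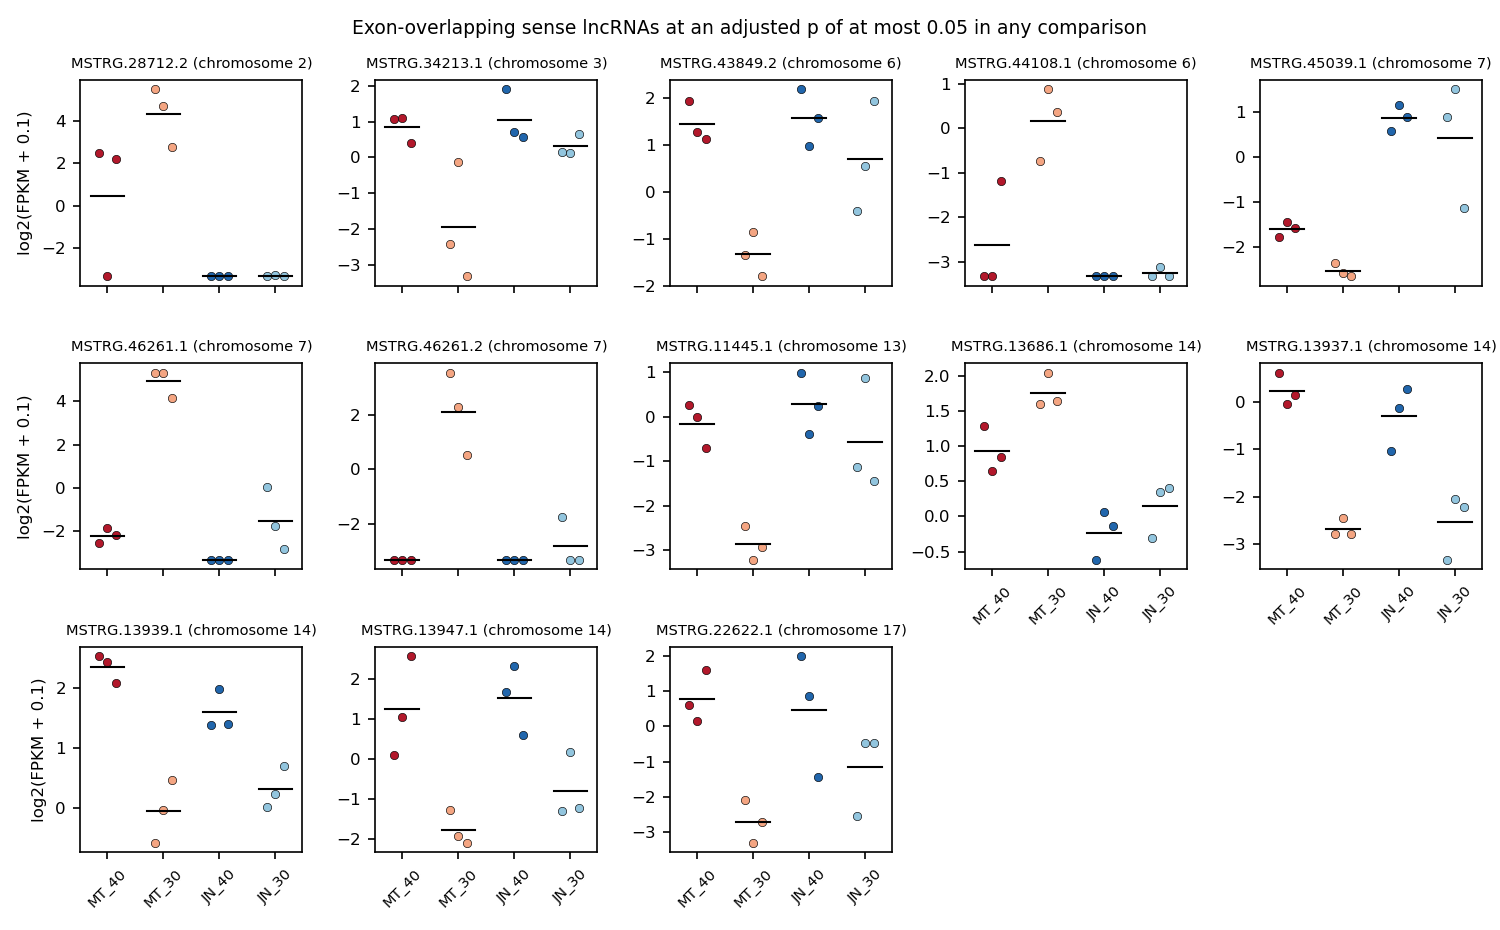
FPKM plus 0.1 on a log2 scale in the 12 libraries for the 13 members at an adjusted p of at most 0.05 in any comparison, in chromosome order. Each point is a library and each line the mean of 3 libraries; MSTRG.46261.1 stands at 17.9 to 40.1 FPKM in MT_30 and at or under 0.933 FPKM in every other library.

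The largest fall among these was that of MSTRG.46261.1 on chromosome 7 (36182734 to 36208657, plus strand, 298 bases in 2 exons, host LOC100803874). It had 0.0692, 0.175 and 0.119 FPKM in MT_40, 39.4, 40.1 and 17.9 FPKM in MT_30, 0 FPKM in each library of JN_40 and 0.933, 0.192 and 0.0412 FPKM in JN_30. The MT_30 libraries stood far above all others, and the remaining 3 groups were near the floor. The log2 fold change was -7.14 (SE 0.61, limma, adjusted p = 0.000164) in MT_40 versus MT_30 and 6.45 (SE 0.61, adjusted p = 0.00026) in MT_30 versus JN_30. Both comparisons share the MT_30 libraries. The highest library held 925.6 estimated reads of this transcript.

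MSTRG.46261.2 is an isoform of the same host that differs from MSTRG.46261.1 by a single base at its end, so the split of reads between both is arbitrary. It was listed at 0 in MT_40 and in JN_40, had 11.5, 4.74 and 1.32 FPKM in MT_30 and had 0.194, 0 and 0 FPKM in JN_30. It passed the test in MT_40 versus MT_30 (adjusted p = 0.00198) and in MT_30 versus JN_30 (log2 fold change 4.91, SE 0.69, adjusted p = 0.00399). Summed over both isoforms, the site gave 0.0692, 0.175 and 0.119 FPKM in MT_40, 50.9, 44.9 and 19.2 FPKM in MT_30, 0 FPKM in JN_40 and 1.13, 0.192 and 0.0412 FPKM in JN_30. The sum shows the same order of groups as MSTRG.46261.1.

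The third member that fell was MSTRG.44108.1 on chromosome 6 (48670252 to 48691257, plus strand, host LOC100818450). It had 0, 0 and 0.338 FPKM in MT_40, 0.504, 1.73 and 1.19 FPKM in MT_30, 0 FPKM in each library of JN_40 and 0, 0.0162 and 0 FPKM in JN_30. For this transcript all MT_30 libraries were above the libraries of the other groups, at a level resting on at most 83.3 estimated reads. Its overlapping isoform MSTRG.44108.3 (48670294 to 48674536, same host) had 6.485 FPKM in JN_4, 0.000446 FPKM in MT_7 and 0 FPKM in the other 10 libraries. The sum of both was therefore highest in JN_4, and the order of groups seen for MSTRG.44108.1 did not hold for the site. The log2 fold change was -2.78 (SE 0.60, limma, adjusted p = 0.029) in MT_40 versus MT_30 and 3.42 (SE 0.60, adjusted p = 0.0181) in MT_30 versus JN_30.

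Of the 7 members that rose in MT_40 versus MT_30, 3 lay in 1 locus of chromosome 14 (3176494 to 3506190, plus strand). This locus held 15 members, the most of any locus, under 4 host names (LOC100810448, LOC100814562, LOC102667496 and LOC102667589). Their spans nested and overlapped, and 14 of the 15 members were tested. The summed level was 21.6, 26.0 and 61.1 FPKM in MT_40, 9.29, 7.85 and 9.17 FPKM in MT_30, 24.0, 39.1 and 13.0 FPKM in JN_40 and 4.32, 11.6 and 17.4 FPKM in JN_30. In MT72 all libraries at 40 d were above those at 30 d, while in JN18 the stages overlapped, with JN_6 at 40 d below JN_9 at 30 d.

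**Figure D3:**
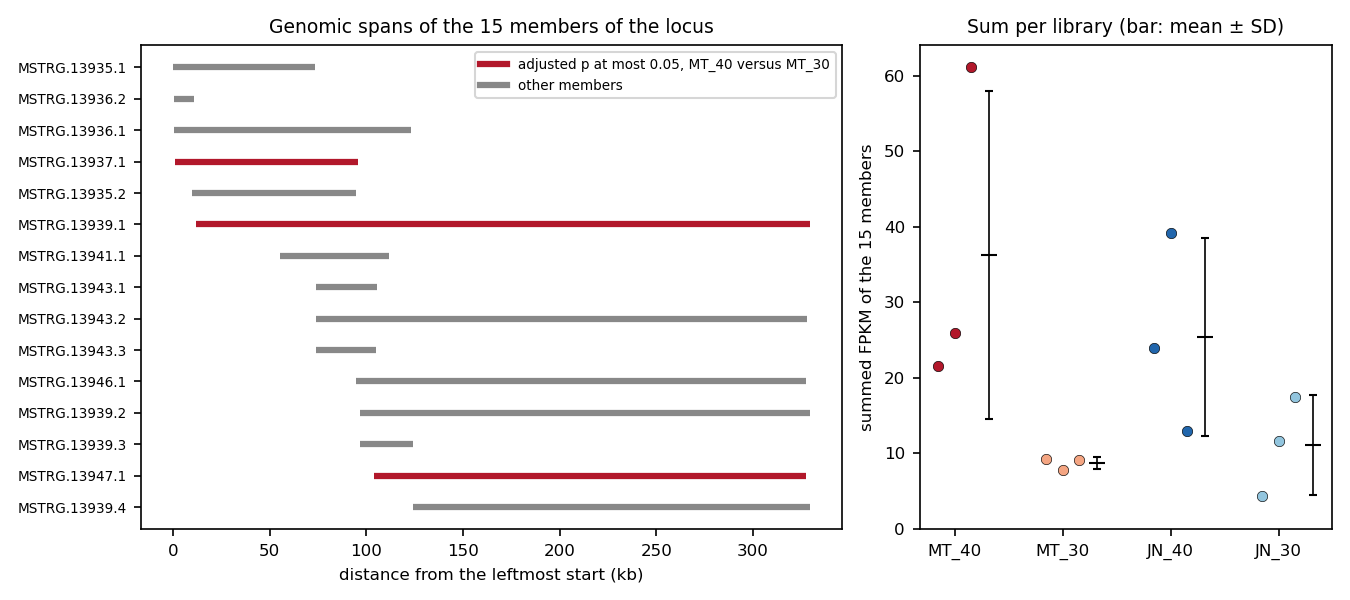
Left, spans of the 15 members of the chromosome 14 locus in kb from the leftmost start, with the 3 members past an adjusted p of 0.05 in MT_40 versus MT_30 in red. Right, their summed FPKM per library with mean and SD of 3 libraries, from 21.6 to 61.1 FPKM in MT_40 and from 7.85 to 9.29 FPKM in MT_30.

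All 14 tested members of the locus had a positive log2 fold change in MT_40 versus MT_30, with a median of 1.58 and a range of 0.04 to 4.07. In JN_40 versus JN_30, 13 of 14 were positive, with a median of 1.01 and a range of -0.54 to 2.34, and none passed the adjusted test. These members share sequence and reads and are not independent of each other. MSTRG.13939.1 (3188423 to 3506190, host LOC100810448) had 5.70, 5.29 and 4.13 FPKM in MT_40, 0.565, 0.879 and 1.28 FPKM in MT_30, 2.51, 3.88 and 2.55 FPKM in JN_40 and 0.915, 1.08 and 1.52 FPKM in JN_30. The stages did not overlap in either line. Its log2 fold change was 2.40 (SE 0.34, limma, adjusted p = 0.00373) in MT_40 versus MT_30 and 1.28 (SE 0.34, adjusted p = 0.160) in JN_40 versus JN_30.

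MSTRG.13937.1 (3177400 to 3272192, host LOC102667589) had 1.43, 0.869 and 1.01 FPKM in MT_40, 0.0457, 0.0838 and 0.0462 FPKM in MT_30, 0.391, 0.810 and 1.12 FPKM in JN_40 and 0, 0.143 and 0.117 FPKM in JN_30. Again both lines were higher at 40 d with no overlap between the stages. The log2 fold changes were 2.90 (SE 0.50, limma, adjusted p = 0.00952) in MT72 and 2.23 (SE 0.50, adjusted p = 0.1) in JN18. MSTRG.13947.1 (3280568 to 3504033, host LOC100810448) had 0.972, 1.97 and 5.91 FPKM in MT_40, 0.312, 0.161 and 0.131 FPKM in MT_30, 3.13, 4.92 and 1.43 FPKM in JN_40 and 0.306, 1.02 and 0.323 FPKM in JN_30. It too showed no overlap of stages in either line, with log2 fold changes of 3.02 (SE 0.64, limma, adjusted p = 0.0252) in MT72 and 2.34 (SE 0.64, adjusted p = 0.173) in JN18. The most abundant member of the locus, MSTRG.13939.4 (3300421 to 3506190), had 5.95 to 27.0 FPKM in MT_40 and 4.30 to 5.77 FPKM in MT_30 and did not pass the test (log2 fold change 1.25, SE 0.62, adjusted p = 0.372).

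The other 4 members that rose in MT_40 versus MT_30 lay on chromosomes 3, 6, 13 and 17. MSTRG.43849.2 on chromosome 6 (45697266 to 45728892, plus strand, host LOC100790804) had 3.73, 2.33 and 2.10 FPKM in MT_40 and 0.294, 0.455 and 0.186 FPKM in MT_30, with a log2 fold change of 2.78 (SE 0.53, limma, adjusted p = 0.0156). MSTRG.34213.1 on chromosome 3 (4126774 to 4203660, plus strand, host LOC102665234) had 1.99, 2.05 and 1.22 FPKM in MT_40 and 0.0885, 0.823 and 0.000125 FPKM in MT_30, with a log2 fold change of 2.80 (SE 0.66, adjusted p = 0.041). In JN_30 MSTRG.43849.2 had 0.660, 1.38 and 3.72 FPKM and MSTRG.34213.1 had 0.9996, 0.992 and 1.47 FPKM. For both members the MT_30 libraries were the lowest of all 12 libraries.

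MSTRG.22622.1 on chromosome 17 (35872816 to 35900485, minus strand, host LOC100782182) had 1.43, 1.02 and 2.93 FPKM in MT_40 and 0.133, 0 and 0.0505 FPKM in MT_30 (log2 fold change 3.51, SE 0.81, limma, adjusted p = 0.0381). MSTRG.11445.1 on chromosome 13 (27226555 to 27229267, minus strand, host LOC102661731) had 1.09, 0.896 and 0.510 FPKM in MT_40 and 0.0818, 0.00770 and 0.0320 FPKM in MT_30 (log2 fold change 2.71, SE 0.61, adjusted p = 0.0327). With a span of 2713 bases it was the 1 member of the 10 that did not exceed 10 kb, as 54 of the 146 members tested did not. Each of these was higher in all MT_40 libraries than in all MT_30 libraries.

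The calls of MSTRG.13939.1, MSTRG.46261.1 and MSTRG.46261.2 were kept under all 19 alternative settings of MT_40 versus MT_30. Each of the other 7 was lost when at least 1 library was left out: 6 were lost without MT_4, without MT_5 or without MT_9 (adjusted p between 0.0523 and 0.164), 5 without MT_7, 4 without MT_6 or MT_8, and 2 without JN_5 or JN_6, with adjusted p up to 0.163. Without JN_9 there were 15 calls. Other settings removed calls as well, 5 with voom on estimated reads, 4 with a pseudocount of 0.01 and 4 with a pseudocount of 1. A further 2 settings, no filter and the compared groups alone, removed 2 each, and a filter at 0.5 FPKM removed 1.

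The chromosome 6 locus of MSTRG.43849.2 (45560657 to 45728892) held 4 members under LOC100783190, LOC100784785 and LOC100790804. Their sum was 8.38, 4.10 and 4.07 FPKM in MT_40, 0.602, 1.20 and 0.512 FPKM in MT_30, 6.88, 3.395 and 4.83 FPKM in JN_40 and 1.16, 2.86 and 5.82 FPKM in JN_30. The MT_30 libraries were low and JN_9 alone reached the level of 40 d among the JN_30 libraries. All 4 members had a positive log2 fold change at 40 d against 30 d, with medians of 2.16 in MT72 and 0.64 in JN18, and 1 of 4 passed the adjusted test in MT72. The chromosome 3 locus under LOC102662694 and LOC106798032 (4516966 to 4893997, minus strand) also held 4 members, all above 0 in log2 fold change in both lines, with medians of 1.0 in MT72 and 0.98 in JN18, and none past the adjusted test. Its sum was 1.89, 3.51 and 3.02 FPKM in MT_40 and 0.963 to 1.16 FPKM in MT_30, against 3.81, 2.64 and 0.822 FPKM in JN_40 and 0.381 to 1.26 FPKM in JN_30. Its longest span was that of MSTRG.34236.1 (4544905 to 4893997, 349093 bases, host LOC102662694), with 0.0803 to 0.813 FPKM in MT_40, 0.131 to 0.514 FPKM in MT_30, 0.00687 to 1.34 FPKM in JN_40 and 0 to 0.601 FPKM in JN_30 and all 4 groups overlapping.

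The remaining loci with at least 4 members lay on chromosomes 7, 2 and 6. The chromosome 7 locus under LOC102665361 and LOC102670161 (5570185 to 5725322, plus strand) held 8 members, whose sum was 10.7, 6.64 and 12.6 FPKM in MT_40, 11.6, 11.1 and 11.5 FPKM in MT_30, 10.1, 12.8 and 12.2 FPKM in JN_40 and 15.03, 17.2 and 3.44 FPKM in JN_30. Its groups overlapped, and JN_9 was the lowest library. Of its 7 tested members, 4 had a positive log2 fold change in MT_40 versus MT_30, with a median of 0.09 and a range of -2.96 to 1.42. The lowest of these was MSTRG.45031.1 (5570185 to 5719331, host LOC102665361), which had 0.504, 0.00297 and 2.38 FPKM in MT_40, 4.55, 4.02 and 3.69 FPKM in MT_30, 1.40, 1.29 and 1.502 FPKM in JN_40 and 3.855, 1.71 and 0.000703 FPKM in JN_30. Its MT_40 libraries were all below its MT_30 libraries, past the study's thresholds but not the adjusted test (log2 fold change -2.96, SE 1.18, limma, adjusted p = 0.237, and -1.77 without MT_5). The 4 members at LOC102666681 on chromosome 2 (45348540 to 45350029, minus strand) were listed at 0 in every library at 40 d of both lines. They summed to 0, 0.000238 and 0.254 FPKM in MT_30 and to 1.95, 0.133 and 0.0769 FPKM in JN_30. A chromosome 6 locus under LOC100796760 and LOC102662143 (44394225 to 44523913, plus strand) summed to at most 0.454 FPKM outside JN_4, which had 2.45 FPKM. It includes MSTRG.43789.2, the fifth longest mature transcript at 3537 bases, which stayed at or under 0.0118 FPKM.

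The same stage comparison in the control line, JN_40 versus JN_30, gave no member at an adjusted p of at most 0.05 by limma, with 0.197% of all lncRNAs tested called. At an unadjusted p of at most 0.05 there were 14 members (11.9% of all lncRNAs tested passed this), and at the study's thresholds 10 were up-regulated and 3 down-regulated (8.9%), against 5.49% and 5.14% of all lncRNAs tested (10.6% together). With voom on estimated reads none passed the adjusted test either. Leaving out MT_7, JN_4 or JN_8 gave 1 call, and the count at the study's thresholds was 23 without JN_9, 24 without JN_6 and 21 without JN_8. The members with the largest log2 fold changes and no overlap between the stages were MSTRG.26204.1, MSTRG.13947.1, MSTRG.13937.1 and MSTRG.16217.1 on the higher side. MSTRG.16217.1 on chromosome 15 (4418883 to 4419979, plus strand, host LOC102660017) had 1.23, 2.03 and 1.93 FPKM in JN_40 and 0.531, 0.888 and 0 FPKM in JN_30, with the 0 in JN_9 (log2 fold change 2.17, adjusted p = 0.218, and 1.18 without JN_9). On the lower side, MSTRG.3143.1 on chromosome 10 (12081173 to 12081650, plus strand, host LOC548073) had 1.21, 1.03 and 1.53 FPKM in JN_40 and 4.73, 2.50 and 2.69 FPKM in JN_30 (log2 fold change -1.29, SE 0.39, adjusted p = 0.229). In MT72 it had 0.538, 1.23 and 1.62 FPKM at 40 d and 2.02, 1.96 and 2.80 FPKM at 30 d, so that it was lower at 40 d in both lines with no overlap.

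MT_40 versus MT_30 and JN_40 versus JN_30 share no library. The sign of the stage difference was the same in both for 103 of the 146 members tested (70.5%), against 60.2% of all lncRNAs tested. Both lines were higher at 40 d for 63 members and lower for 40 members. Of the 29 members up-regulated in MT72 at the study's thresholds, 25 had a positive log2 fold change in JN18 (86.2%), close to the 82.2% of all lncRNAs up-regulated in MT72. Up-regulated in JN18 as well were 3 of the 29 (10.3%), which are 3 of the 10 up-regulated in JN18 (30%). Of all lncRNAs tested, 195 were up-regulated in both lines, 31.3% of those in MT72 and 38.8% of those in JN18, so that the members' share in MT72 was the lower one. The difference between these shares was not tested. The 3 members up-regulated in both were the chromosome 14 transcripts MSTRG.13937.1, MSTRG.13939.1 and MSTRG.13947.1. Of the 13 down-regulated in MT72, 10 were negative in JN18 (76.9%, against 73.7% of all lncRNAs down-regulated in MT72). Down-regulated in both lines were 3 members, MSTRG.3143.1, MSTRG.40627.1 and MSTRG.46261.1, which are 23.1% of the 13 in MT72 and all 3 of those in JN18, against 14.1% and 20.2% over all lncRNAs tested. MSTRG.40627.1 had 0, 0 and 0.279 FPKM in JN_40 and 2.57, 0.26 and 0.305 FPKM in JN_30, so its stages overlapped in JN18. MSTRG.46261.1 had at most 0.933 FPKM in JN_30.

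**Figure D4:**
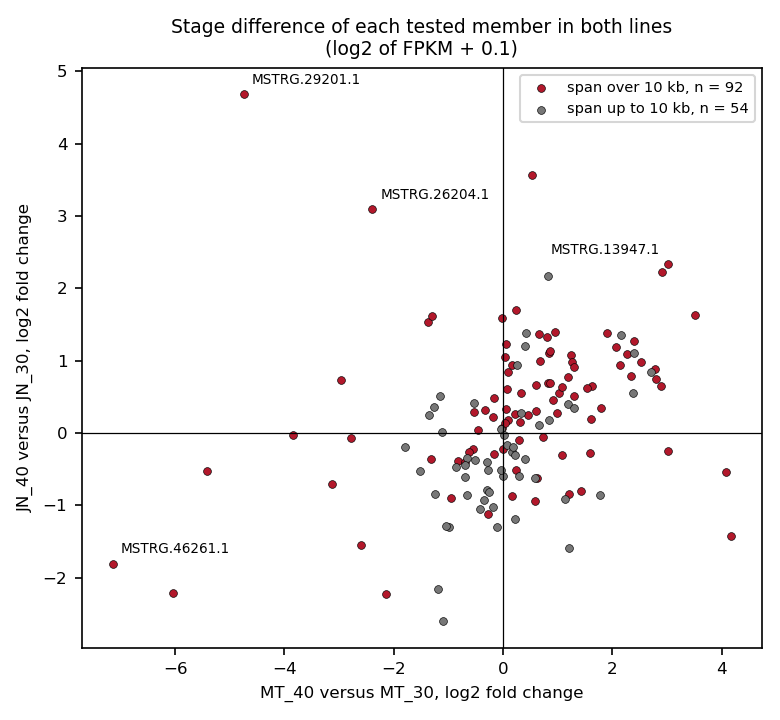
Log2 fold change of 40 d versus 30 d in MT72 (x axis) and in JN18 (y axis) for the 146 members tested, on the scale of log2 of FPKM plus 0.1, coloured by genomic span. MSTRG.29201.1 and MSTRG.26204.1 lie low in MT72 and high in JN18. More members over 10 kb lie in the upper right (50 of 92) than in the lower left (17 of 92). The 50 include 13 overlapping members of the chromosome 14 locus. Of the 9142 lncRNAs tested, 2320 were higher and 3181 lower at 40 d in both lines.

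Members of long span were on balance higher at 40 d. Among the 92 tested members over 10 kb the median log2 fold change was 0.56 in MT_40 versus MT_30 and 0.47 in JN_40 versus JN_30. Among the 54 up to 10 kb it was -0.04 and -0.37, and over all lncRNAs tested it was -0.10 and -0.08. The median level of the members over 10 kb was 0.754, 0.798 and 1.11 FPKM in MT_40, 0.418, 0.526 and 0.465 FPKM in MT_30, 0.822, 0.877 and 0.528 FPKM in JN_40 and 0.304, 0.778 and 0.345 FPKM in JN_30. In MT72 the stages did not overlap in this median, and in JN18 they did, since JN_8 was above JN_6. No test was made of this median.

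The chromosome 14 locus contributed to this. Without its members the median log2 fold change of the 78 remaining tested members over 10 kb was 0.24 in MT72 and 0.28 in JN18. For members over 100 kb (30 tested), which include members of the chromosome 14 locus, the medians were 0.79 and 0.50. Of these, 73.3% were above 0 in MT72 and 60% in JN18, against 68.5% and 67.4% of the members over 10 kb. Spliced lncRNAs of classes j, x and u over 10 kb had medians of 0.11 in MT72 and 0.28 in JN18 (112 tested), and those up to 10 kb had 0.05 and -0.01 (1524 tested). Among them the junction-sharing transcripts over 10 kb had a median of 0.48 in MT72 and 0.08 in JN18 (25 tested). The antisense transcripts over 10 kb had 0.16 and 0.25 (60 tested), and the intergenic ones had -0.42 and 0.36 (27 tested).

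**Figure D5:**
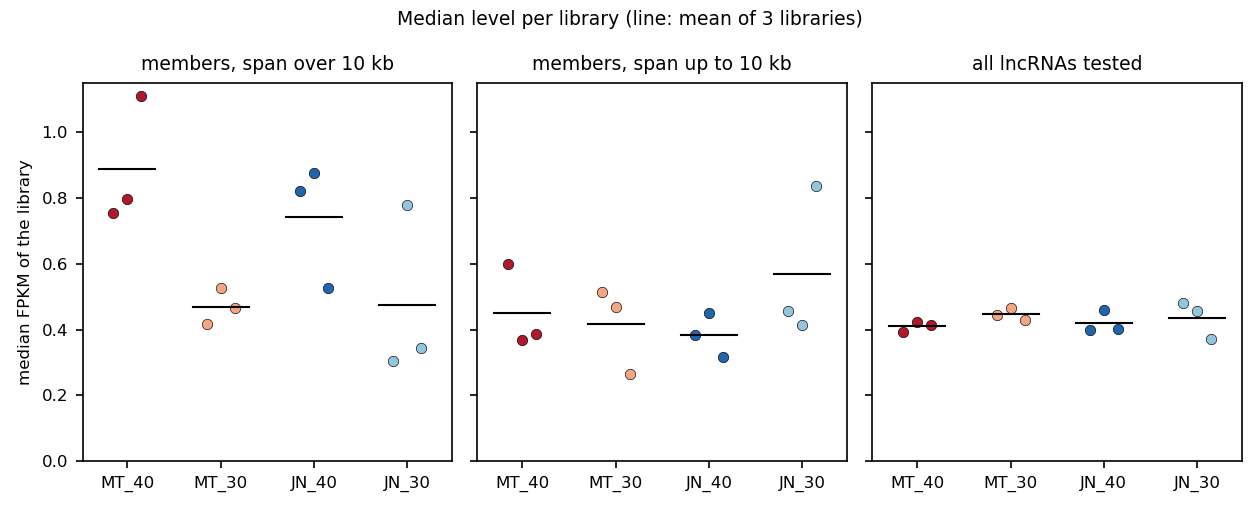
Median FPKM in each of the 12 libraries over the 92 tested members spanning over 10 kb, the 54 up to 10 kb and all 9142 lncRNAs tested, with the mean of 3 libraries as a line. The medians of the long-span members run from 0.754 to 1.11 FPKM in MT_40 and from 0.418 to 0.526 FPKM in MT_30, while those of all lncRNAs lie between 0.370 and 0.482 FPKM.

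The genotypes were compared at each stage, and each of these comparisons shares its libraries with the stage comparisons. At 30 d, MT_30 versus JN_30 gave 6 members at an adjusted p of at most 0.05 (4.11% of those tested), against 0.886% of all lncRNAs tested. Of these, 5 were higher in MT_30 and 1 was lower, against 0.733% and 0.153% of all lncRNAs tested. All 6 spanned over 10 kb, as did 92 of the 146 members tested, and 2 of the 6 were isoforms at 1 site. At the study's thresholds 20 members were up-regulated and 8 down-regulated (19.2%), against 7.25% and 4.73% of all lncRNAs tested (12% together). The median log2 fold change was -0.20 over the members and -0.03 over all lncRNAs tested. Of the 6, MSTRG.46261.1, MSTRG.46261.2 and MSTRG.44108.1 were those that fell in MT_40 versus MT_30, with their values above.

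MSTRG.28712.2 on chromosome 2 (2512390 to 2558055, minus strand, host LOC100806774) had 5.50, 0 and 4.49 FPKM in MT_40, 44.2, 25.3 and 6.76 FPKM in MT_30, 0 FPKM in each library of JN_40 and 0.00155, 0.00324 and 0 FPKM in JN_30. It was thus detected almost only in MT72, and higher there at 30 d. The log2 fold change of MT_30 versus JN_30 was 7.60 (SE 1.18, limma, adjusted p = 0.00686), and that of MT_40 versus MT_30 was -3.85 (SE 1.18, adjusted p = 0.119). MSTRG.28712.1, which starts at the same base (2512390 to 2626761, host LOC102669067), had 0, 13.3 and 0 FPKM in MT_40, 5.02, 76.6 and 98.1 FPKM in MT_30, 0.344, 0 and 3.44 FPKM in JN_40 and 8.82, 17.6 and 0 FPKM in JN_30. In MT_40 no library listed both transcripts above 0. The 3 members of this locus together gave 7.76, 14.1 and 5.43 FPKM in MT_40, 49.3, 101.9 and 105 FPKM in MT_30, 0.483, 0 and 3.77 FPKM in JN_40 and 8.86, 18.7 and 0 FPKM in JN_30, with every MT_30 library above all others.

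MSTRG.13686.1 on chromosome 14 (1326961 to 1352282, plus strand, host LOC100784805) had 2.34, 1.47 and 1.69 FPKM in MT_40, 2.92, 4.02 and 3.01 FPKM in MT_30, 0.552, 0.941 and 0.809 FPKM in JN_40 and 0.710, 1.17 and 1.23 FPKM in JN_30. Its log2 fold change was 1.61 (SE 0.33, limma, adjusted p = 0.0413) at 30 d and 1.16 (SE 0.33, adjusted p = 0.420) at 40 d. MSTRG.45039.1 on chromosome 7 (5646897 to 5720809, plus strand, host LOC102665361) was the member lower in MT_30. It had 0.192, 0.267 and 0.235 FPKM in MT_40, 0.0969, 0.0676 and 0.0598 FPKM in MT_30, 1.41, 2.14 and 1.74 FPKM in JN_40 and 1.77, 2.74 and 0.355 FPKM in JN_30. The log2 fold change was -2.95 (SE 0.56, limma, adjusted p = 0.0272) at 30 d and -2.48 (SE 0.56, adjusted p = 0.210) at 40 d. The lines did not overlap at either stage for both members. MSTRG.45039.1 belongs to the chromosome 7 locus of 8 overlapping members. The sum of that locus was 6.64 to 12.6 FPKM in MT_40 and 10.1 to 12.8 FPKM in JN_40. At 30 d it was 11.1 to 11.6 FPKM in MT_30 and 3.44 to 17.2 FPKM in JN_30. The order of lines seen for MSTRG.45039.1 therefore did not hold for the site.

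Other members past the study's thresholds at 30 d did not pass the adjusted test. MSTRG.32792.1 on chromosome 20 (37755639 to 37805882, plus strand, host LOC100784223) had 15.6, 8.55 and 10.9 FPKM in MT_30 and 3.93, 2.55 and 0 FPKM in JN_30, with the 0 in JN_9 (log2 fold change 3.48, adjusted p = 0.197, and 1.81 without JN_9). MSTRG.43971.1 on chromosome 6 (47089297 to 47093485, minus strand, host LOC106798973) had 0.00401, 0 and 0 FPKM in MT_30 and 0.455, 0.128 and 1.66 FPKM in JN_30 (log2 fold change -2.58, adjusted p = 0.185). MSTRG.13089.1 on chromosome 13 (42451047 to 42451842, plus strand, host LOC100815974) had 0, 0.110 and 0 FPKM in MT_30 and 0.298, 0.383 and 1.21 FPKM in JN_30 (log2 fold change -2.30, adjusted p = 0.123). In each of these the libraries of both lines did not overlap at 30 d.

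Of the 6 calls at 30 d, that of MSTRG.46261.1 was kept under all 20 alternatives. MSTRG.46261.2 was lost with the compared groups alone (adjusted p = 0.123) and MSTRG.28712.2 with voom (adjusted p = 0.093). MSTRG.13686.1 was lost without any 1 of MT_4 to MT_9, JN_6, JN_7 or JN_8, MSTRG.45039.1 without MT_7, MT_8, MT_9, JN_7 or JN_8, and MSTRG.44108.1 without MT_8 or MT_9, with adjusted p-values between 0.0514 and 0.189. These 3 were also lost under some of the other settings. Without MT_9 there were 3 calls in all.

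At 40 d, MT_40 versus JN_40 gave no member at an adjusted p of at most 0.05 by limma, where 0.153% of all lncRNAs tested were called, and none with voom on estimated reads. At an unadjusted p of at most 0.05 there were 20 members (13.7%), against 6.76% of all lncRNAs tested. At the study's thresholds 9 were up-regulated and 8 down-regulated (11.6%), against 3.4% and 2.45% of all lncRNAs tested (5.85% together). The median log2 fold changes were 0.13 over the members and -0.01 over all lncRNAs tested. Leaving out JN_9 gave 2 calls, and leaving out MT_5, MT_7 or JN_4 gave 1.

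Among the members past the study's thresholds at 40 d, MSTRG.28716.1 on chromosome 2 (2540366 to 2752686, minus strand, host LOC102669067) had 2.26, 0.827 and 0.939 FPKM in MT_40 and 0.139, 0 and 0.334 FPKM in JN_40 (log2 fold change 2.59, adjusted p = 0.580). MSTRG.13939.2 of the chromosome 14 locus had 1.06, 1.77 and 5.73 FPKM in MT_40 and 0, 0.00268 and 1.04 FPKM in JN_40 (log2 fold change 3.36, adjusted p = 0.584). The long-span MSTRG.34233.2 on chromosome 3 (4516966 to 4829616, minus strand, host LOC102662694) had 1.11, 1.15 and 0.940 FPKM in MT_40 and 0.640, 0.204 and 0.481 FPKM in JN_40 (log2 fold change 1.20, adjusted p = 0.584). These 3 were higher in every MT_40 library than in every JN_40 library. The order did not hold for the summed locus of MSTRG.13939.2 (21.6 to 61.1 FPKM in MT_40, 13.0 to 39.1 FPKM in JN_40). Nor did it hold for that of MSTRG.34233.2 (1.89 to 3.51 FPKM in MT_40, 0.822 to 3.81 FPKM in JN_40). It did hold for that of MSTRG.28716.1 (5.43 to 14.1 FPKM in MT_40, 0 to 3.77 FPKM in JN_40).

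On the lower side at 40 d, MSTRG.14868.1 on chromosome 14 (26035662 to 26040010, plus strand, host LOC102670038), a 4-exon transcript of 4011 bases, had 0.635, 0.118 and 0.371 FPKM in MT_40 and 2.02, 1.22 and 0.865 FPKM in JN_40 (log2 fold change -1.72, adjusted p = 0.388). MSTRG.18179.3 on chromosome 15 (49554979 to 49556746, minus strand, host LOC102664505) had 0.0419, 0.0515 and 0 FPKM in MT_40 and 1.52, 0.0808 and 0.145 FPKM in JN_40 (log2 fold change -1.69, adjusted p = 0.703). The mean of the JN_40 group for MSTRG.18179.3 was set by JN_4.

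Whether the stage difference itself differed between the lines was tested as the log2 fold change of MT_40 versus MT_30 minus that of JN_40 versus JN_30. A single member, MSTRG.46261.1, passed an adjusted p of at most 0.05 (0.685% of those tested), against 0.0766% of all lncRNAs tested. Its difference was -5.34 (SE 0.86, limma, adjusted p = 0.0445), and the JN_40 libraries that enter it are listed at 0. The call was kept under 5 of 19 alternatives and was lost, among others, without any 1 of MT_4 to MT_9, JN_4, JN_5, JN_6 or JN_8 (adjusted p between 0.0639 and 0.199). At the study's thresholds 16 members passed, 8 in each direction (11%), against 6.66% of all lncRNAs tested.

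The next smallest p-values were those of MSTRG.46261.2 (adjusted p = 0.130) and of MSTRG.26204.1 on chromosome 19 (4824077 to 4889750, plus strand, host LOC102665313). MSTRG.26204.1 had 0, 0 and 0.0415 FPKM in MT_40, 5.04, 0.178 and 0.0454 FPKM in MT_30, 0.909, 0.826 and 0.570 FPKM in JN_40 and 0 FPKM in each library of JN_30. It was higher at 40 d in JN18 without overlap. In MT72 it was lower at 40 d, but only 0.0415 FPKM in MT_6 against 0.0454 FPKM in MT_9 kept the stages apart. Both values lie below 0.1 FPKM. Its difference of stage effects did not pass the test (adjusted p = 0.441), and MT_7 held 66.2% of its summed level.

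MSTRG.29201.1 on chromosome 2 (7013199 to 7059037, minus strand, host LOC100798984) was the longest mature transcript among the members, at 4863 bases. It was listed at 0 in MT_40, had 7.72, 24.6 and 0 FPKM in MT_30, had 6.06, 27.4 and 0 FPKM in JN_40 and was listed at 0 in JN_30. Detection was therefore confined to MT_7, MT_8, JN_4 and JN_5, with a library at 0 in both of these groups. It passed the study's thresholds in all 4 pairwise comparisons, and its adjusted p was 0.245 in MT_40 versus MT_30, 0.359 in JN_40 versus JN_30, 0.299 between the lines at 30 d and 0.654 between them at 40 d. The test of the difference of stage effects gave an adjusted p of 0.569. Other long transcripts were MSTRG.32448.3 on chromosome 20 (34651840 to 34661213, minus strand, 4405 bases, host LOC100306601) and MSTRG.15426.2 on chromosome 14 (46296612 to 46302017, plus strand, 3736 bases, host LOC100782124). MSTRG.32448.3 had 1.05 to 1.67 FPKM in MT_40, 1.04 to 1.38 FPKM in MT_30, 1.34 to 2.22 FPKM in JN_40 and 1.0 to 3.18 FPKM in JN_30. MSTRG.15426.2 had 0.279 to 0.377 FPKM in MT_40, 0.373 to 0.526 FPKM in MT_30, 0.273 to 0.574 FPKM in JN_40 and 0.510 to 2.09 FPKM in JN_30, with the highest value in JN_9. Both were detected in all 12 libraries, and neither passed the study's thresholds in any comparison.

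A part of the members rested on a single library. In 46 of the 189 members more than 50% of the level summed over the 12 libraries came from 1 library, and 15 of these 46 were tested. JN_4 was that library for 10 members and JN_6 for none. MSTRG.2962.1 on chromosome 10 (6652543 to 6702552, minus strand, host LOC100500331), the 10th member by mean level, had 83.9 FPKM in JN_4 and at most 0.0789 FPKM in each other library. It did not pass the filter and was not tested. MSTRG.6259.1 (host LOC100789168) was listed at 27.0 FPKM in JN_4 and at 0 in the other 11 libraries, and is named here because of that value.

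Detection by line or stage was seldom complete. Of all members, 1 was at 0 in every JN18 library and above 0 in at least 3 MT72 libraries (MSTRG.5387.1), and 1 showed the reverse (MSTRG.12350.3), against 0.443% and 0.415% of the table. At 0 in every 30 d library and above 0 in at least 3 libraries at 40 d were MSTRG.11445.4 and MSTRG.4407.2, as were 0.506% of the table, and the reverse held for MSTRG.31053.3, MSTRG.31053.7 and MSTRG.46261.2 and for 0.957% of the table. These transcripts were named after their values were seen. Overlapping members of the same hosts as MSTRG.11445.4 and MSTRG.4407.2 were detected at 30 d. MSTRG.11445.1 had 0.355, 1.73 and 0.266 FPKM in JN_30, and MSTRG.4407.1 had 7.10 to 12.2 FPKM in MT_30. The 0 values of MSTRG.11445.4 and MSTRG.4407.2 at 30 d thus did not hold for their sites.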

How the data were processed

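Young pods of MT72 and JN18 at 40 and 30 d after flowering gave 12 rRNA-depleted libraries, grouped by their labels, with 3 biological replicates per group. The authors trimmed reads with Cutadapt, mapped them and assembled transcripts with StringTie. For mapping, HISAT2 stands in their methods but TopHat2 in the submitters' processing notes, both with no version. Positions are on a build not given in the sources used here. In each library the deposited table gives the authors' FPKM and the coverage per base (read depth, not normalized) of each lncRNA. It also holds the CPC and CNCI scores by which the authors removed transcripts with coding potential. It holds no read counts. Estimated reads were computed as coverage times length over the read length of 150 bases.

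Log2 of FPKM plus 0.1 was fitted with limma 3.58.1 (R 4.3.3) over the 9142 lncRNAs that exceeded 0.1 FPKM in 3 or more libraries, with all 4 groups in 1 fit and a variance trend, and p-values were adjusted over all of them by the Benjamini-Hochberg method. The fit was tested on simulated data. Fold changes of low transcripts depend on the pseudocount. The smallest p of an exact permutation of 3 against 3 libraries is 0.1, so no such test was used. The alternatives were pseudocounts of 0.01 and 1, no filter, a filter at 0.5 FPKM, the compared groups alone, FPKM rescaled to equal medians, voom on estimated reads, a block on library number and leaving out each library. Methods for edgeR need counts and were not used.

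Members and lists were chosen with earlier results of these data known. Named members were the called ones of each comparison, up to 6 per direction; those past the study's thresholds without overlap, up to 4 per direction; the 10 of highest mean; the 5 of longest span and of longest transcript; loci of at least 4 members, as groups; the 3 of smallest p for the stage difference; and MSTRG.29201.1, which the paper names. MSTRG.13939.1 was called and also named by its span. Host names were looked up in RefSeq Glycine_max_v4.0, where 106 of 146 were found. Python 3.11.15, numpy 2.4.6, pandas 2.3.3 and matplotlib 3.10.9 served for descriptions and figures.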

Additional observations from a re-analysis of the deposited data

Results flagged for a closer look

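The stage effect of MSTRG.46261.1 (chromosome 7, host LOC100803874) differed between the lines by -5.34 on the log2 scale, as MT_40 versus MT_30 minus JN_40 versus JN_30 (SE 0.86, limma, adjusted p = 0.0445). It was set apart because the test of this difference passed its threshold. It was lower in all 3 MT_40 libraries than in all 3 MT_30 libraries, and the JN_40 libraries were listed at 0 while JN_30 had at most 0.933 FPKM. The adjusted p ran between 0.00121 and 0.769 over the 19 alternatives.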

How the results depend on the processing

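Over the settings that leave out 1 library, the number of members called ran from 4 to 15 in MT_40 versus MT_30 (15 without JN_9), from 0 to 1 in JN_40 versus JN_30 (1 without MT_7, JN_4 or JN_8), from 3 to 6 in MT_30 versus JN_30, from 0 to 2 in MT_40 versus JN_40 and from 0 to 1 for the difference of stage effects. With the compared groups alone in the fit there were 20 calls in MT_40 versus MT_30 and 2 in MT_30 versus JN_30, against 10 and 6 with all groups. With voom there were 5, 3 and, for the difference of stage effects, 0, which also had 0 calls with a pseudocount of 0.01 and without a filter. The cause of these shifts was not tested. Of the 17 calls, 4 were kept under every alternative, and 232 of 329 values of the 17 calls stayed past the threshold. No log2 fold change of the 38 member results changed sign over 739 alternative values. These results had been chosen for passing a threshold in the same libraries, so a change of sign was unlikely and its absence is no separate support.

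Libraries of the 2 lines share numbers within a stage, but the correlations of same-numbered libraries, -0.159 to 0.014, show no pairing. The replicate block gave 3 calls in MT_30 versus JN_30, 0 in MT_40 versus JN_40 and 0 for the difference of stage effects, and the stages share no number. Above 0.1 FPKM, MT72 had 121.7 members detected per library at 40 d and 114.3 at 30 d, and JN18 had 121.3 at 40 d and 114 at 30 d. At this threshold the stages did not overlap in MT72 (119 to 124 and 112 to 116), unlike above 0 FPKM. In JN18 they overlapped (114 to 128 and 110 to 120). Rescaling moved the median of all lncRNAs tested by at most 0.08. The median log2 fold change of members over 10 kb stayed positive under all 19 alternatives, at 0.18 to 0.67 in MT72 and 0.15 to 0.68 in JN18. A span threshold of 5 kb counted 123 members and one of 20 kb counted 97, and loci by gene number with several members came to 20 instead of 25. At median length 0.1 FPKM is 2.71 to 3.32 estimated reads; whether depth limits the calls was not tested. Where nothing shows separate plants, p-values measure the spread between these libraries.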
